A study of Mus musculus with 30 samples.

Results

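Transcript levels of 10 target genes of the tumour suppressor p53 were followed through 5 sorted stromal populations of the newborn mouse thymus, with and without withdrawal of the growth factor VEGF. The genes were Cdkn1a, Mdm2, Phlda3, Bax, Eda2r, Ccng1, Trp53inp1, Zmat3, Sesn2 and Bbc3. They were chosen by name, with earlier results of these data known. They are 10 of the 18847 genes in the deposited expression table, and each name was found once. All mice were of strain B6.SJL, and libraries held cells of mixed sex. Mice received either aflibercept (VEGF-Trap, called Trap here), a soluble decoy built from parts of 2 VEGF receptors, or hFC as the control on postnatal day 1. Thymi were taken 2 days later, on postnatal day 3, so treated and control mice were 3 days old. The populations were CD31+ endothelium, CD146+ mesenchyme, CD140a+ mesenchyme, cortical thymic epithelial cells (cTEC, EpCAM+ and Ly51+) and medullary thymic epithelial cells (mTEC, EpCAM+ with low or no Ly51). Each was sorted from cells without CD45, Ter119 and T cell markers and gave 2 control and 4 Trap libraries, 30 in all. Values are FPKM, read fragments per kilobase of transcript after division by library size, so levels of different genes can be set side by side, while differences between populations depend in part on how libraries are scaled.

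The p53 protein is a transcription factor that is kept low by continuous degradation and accumulates after DNA damage, oncogene activity, shortage of nutrients and other stress. Mdm2, one of its own targets, encodes the ubiquitin ligase that marks it for degradation, so that the pair forms a negative feedback loop. Other targets stop the cell cycle, start cell death or adjust metabolism and repair. Thymic epithelium also depends on a relative of p53, the p63 protein encoded by Trp63, which binds closely similar DNA sites. A site that p53 binds consists of 2 copies of a short half-site of 10 bases, close together.

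The half-sites that lay within the promoters are shown here, because p53 can act on transcription through such sites. It also acts through sites in introns, as in Mdm2, and farther upstream. Only sites within the windows described next were searched. RefSeq promoter windows of build GRCm38.p6 reach from 250 bases before to 50 bases after a start site, 300 bases in all. By symbol, 8 of the 10 members (all but Trp53inp1 and Zmat3) were matched to 11 windows. The p53 half-site consensus, which reads the same on both strands, was searched as the only motif. It occurred in 4 of the 11 member windows (36.4%), against 2745 of all 32851 windows (8.36%). The 4 stretches are written 5′ to 3′ on the strand of the gene, with the half-site in capitals.
Cdkn1a, chr17:29090886-29090957, plus strand: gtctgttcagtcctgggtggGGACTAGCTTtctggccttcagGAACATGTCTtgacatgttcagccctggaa
Mdm2, chr10:117710915-117710964, minus strand: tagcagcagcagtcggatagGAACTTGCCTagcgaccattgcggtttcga
Ccng1, chr11:40755442-40755491, minus strand: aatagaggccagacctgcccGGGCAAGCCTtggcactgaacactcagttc
Bax, chr7:45467070-45467119, minus strand: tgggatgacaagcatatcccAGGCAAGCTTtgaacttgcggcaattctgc

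Cdkn1a was the member whose window held 2 half-sites at most 13 bases apart, as 24 of all 32851 windows did (0.0731%). These began 73 and 51 bases before the upstream one of its 2 start sites, which lie 2790 bases apart. Both half-sites thus lie more than 2790 bases upstream of the other start site. The single half-sites began 186 bases before the start of Mdm2, 185 before that of Ccng1 and 201 before that of Bax. Only exact matches to the consensus were marked, so the 2 in Cdkn1a need not be the 2 copies that p53 binds. The matches describe letters in a window and are not measurements of binding.

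In the GENCODE M21 annotation of GRCm38, the members lie on 8 chromosomes and are not neighbours of one another. Cdkn1a spans chr17:29090976-29100727 on the plus strand, and Mdm2 spans chr10:117688875-117710758 on the minus strand. Exons of Cdkn1a share 273 bases with a transcript on the opposite strand (AC167363.2), and exons of Bax share 192 bases with Gm45808 on the same strand. Whether the counting used strand is not given in the sources used here, so reads in those bases may be divided between the genes.

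FPKM summed to between 184608 and 241993 per library, and between 10298 and 13661 genes reached 1 FPKM. The marker list of each population was higher there than in the mean of the other 4 for all of its genes (10 of 10 in the endothelium and in both mesenchymes, 8 of 8 in cTEC and in mTEC), so the sort labels matched the transcripts. In the second Trap library of the endothelium, the 6 pan-epithelial markers summed to 55.4 FPKM, while the 5 remaining libraries of that population held 3.33 to 13.6. Of 12 thymocyte markers, 10 were higher in cTEC, where they summed to between 69.1 and 168 FPKM. Of 8 mTEC markers, 4 were also higher in cTEC and 3 lower, with sums from 256 to 879 FPKM there and from 1059 to 2839 in mTEC. Of 10 fibroblast markers, 5 were higher and 2 lower in CD146+ mesenchyme, with sums from 508 to 841 FPKM. The part of these transcripts in the results on those libraries was not tested. The labels number the libraries without saying that they came from separate animals, so a p-value here reflects library-to-library spread alone, which may be technical.

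To ask how the members differ between cell types, each was set against the average of the remaining 4 on the scale of log2(FPKM + 1), with limma's moderated test and Benjamini-Hochberg adjustment over 16425 genes, and called at an adjusted p under 0.05. More members were called higher in the epithelium than in the other populations, with Cdkn1a (highest in endothelium), Eda2r (highest in CD140a+ mesenchyme) and Bax as exceptions. In mTEC, 8 of the 10 were higher, a count that includes Bbc3, whose sign turned under quantile normalization, and 0 were lower, beside 38.4% and 17.5% of all genes tested. In cTEC, 5 were higher and 0 lower (background 21.2% and 24.5%). In the endothelium, 2 were higher and 6 lower (17.7% and 34.5%), in the CD146+ mesenchyme 0 and 6 (18.2% and 25%), and in the CD140a+ mesenchyme 1 and 3 (17.1% and 33%). The median difference of the members was 0.78 in mTEC, beside 0.19 over all genes, and 0.35 in cTEC, beside -0.07. It was -0.79 in the endothelium, -0.54 in the CD146+ and -0.33 in the CD140a+ mesenchyme, beside -0.19, -0.08 and -0.19. With the control libraries alone, 6 members were called in mTEC, 3 in cTEC, 5 in endothelium, 3 in CD146+ and 5 in CD140a+ mesenchyme. The share of all genes called in either direction was also lower in that fit, at 35.5%, 24.2%, 31.8%, 22.2% and 28.9%. In sorted bulk libraries such as these, fewer cells of a type and less RNA per cell cannot be told apart.

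How the libraries are scaled moved this background. All genes in mTEC divided into 6304 higher and 2868 lower as deposited, into 5859 and 3781 after rescaling all libraries to the same sum (TPM), and into 4268 and 5753 after quantile normalization, which shifted the median of all genes by -0.34. The members in mTEC kept 6 higher and 0 lower under TPM, and 7 and 0 under quantile normalization. For the CD146+ mesenchyme, the split of all genes changed from 2984 higher and 4105 lower to 3858 and 3458 under TPM, with 0 members higher and 4 lower. For the CD140a+ mesenchyme it changed from 2805 and 5422 to 3498 and 4144 under quantile normalization (shift 0.11), with 2 members higher and 3 lower. For the endothelium it changed from 2900 and 5661 to 3643 and 4368 (shift 0.13), with 2 members higher and 6 lower.

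**Figure D1:**
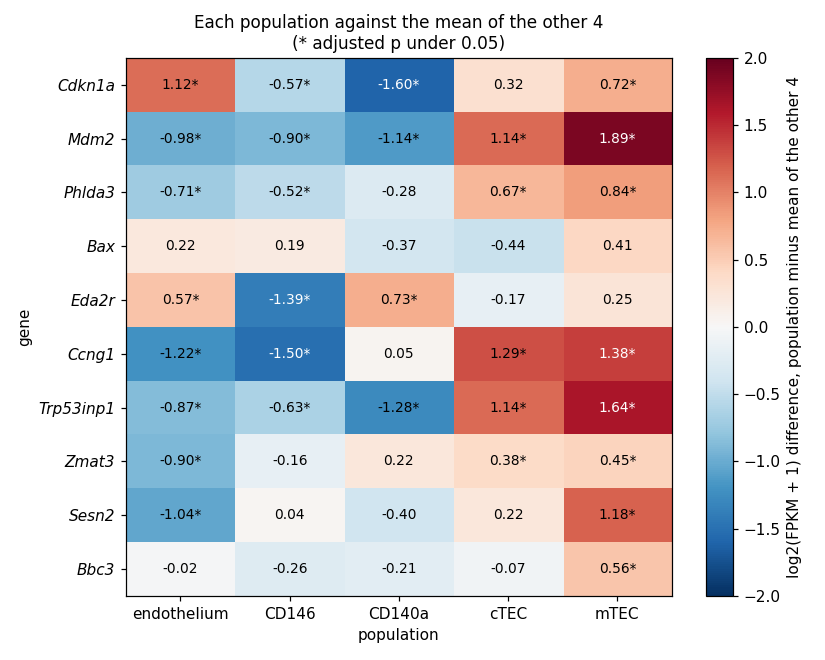
Difference in log2(FPKM + 1) of each member (rows) between 1 population and the mean of the other 4 (columns), with an asterisk where the adjusted p was under 0.05. Mdm2, Ccng1 and Trp53inp1 are higher in both epithelial populations, Bax has no asterisk, and Eda2r is higher in the endothelium and the CD140a+ mesenchyme.

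Mdm2 and Ccng1 act in feedback on p53. Ccng1 encodes cyclin G1, which recruits a phosphatase to the Mdm2 protein. Mdm2 set the epithelium apart from the other stroma. Its 6 mTEC libraries measured 180 and 187 FPKM in control and 244, 210, 228 and 199 with Trap, and its 6 cTEC libraries 113, 130, 148, 140, 148 and 138 in the same order. The other 18 libraries lay between 32.0 and 47.2 FPKM, so no library outside the epithelium came near an epithelial one. The mean was 208 ± 24.7 FPKM (SD, n = 6) in mTEC, 136 ± 13.1 in cTEC, 41.2 ± 2.81 in CD146+ mesenchyme, 40.1 ± 5.92 in endothelium and 36.9 ± 2.99 in CD140a+ mesenchyme, a range of 5.63-fold. Against the mean of the other populations Mdm2 was higher by 1.89 ± 0.07 (SE, log2) in mTEC (limma adjusted p = 5.8e-18) and by 1.14 ± 0.07 in cTEC. In the order of levels mTEC lay above cTEC by 0.60 ± 0.09 (adjusted p = 4.87e-06) and cTEC above CD146+ mesenchyme by 1.63 ± 0.09 (adjusted p = 3.27e-14), while the remaining neighbours did not differ beyond their spread.

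Ccng1 formed 3 tiers. Its mean was 76.7 ± 4.72 FPKM in mTEC and 72.5 ± 3.84 in cTEC, 36.2 ± 1.78 in CD140a+ mesenchyme, and 16.7 ± 4.92 in endothelium and 15.5 ± 5.19 in CD146+ mesenchyme. The 12 epithelial libraries lay between 66.8 and 81.1 FPKM, the CD140a+ libraries between 34.5 and 38.2 and the remaining 12 between 8.30 and 25.3, so the tiers did not overlap. The steps from cTEC to CD140a+ mesenchyme (0.99 ± 0.16, limma adjusted p = 1.43e-05) and from there to endothelium (1.02 ± 0.16, adjusted p = 1.12e-05) passed the test. Within the upper and the lower tier no difference did.

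**Figure D2:**
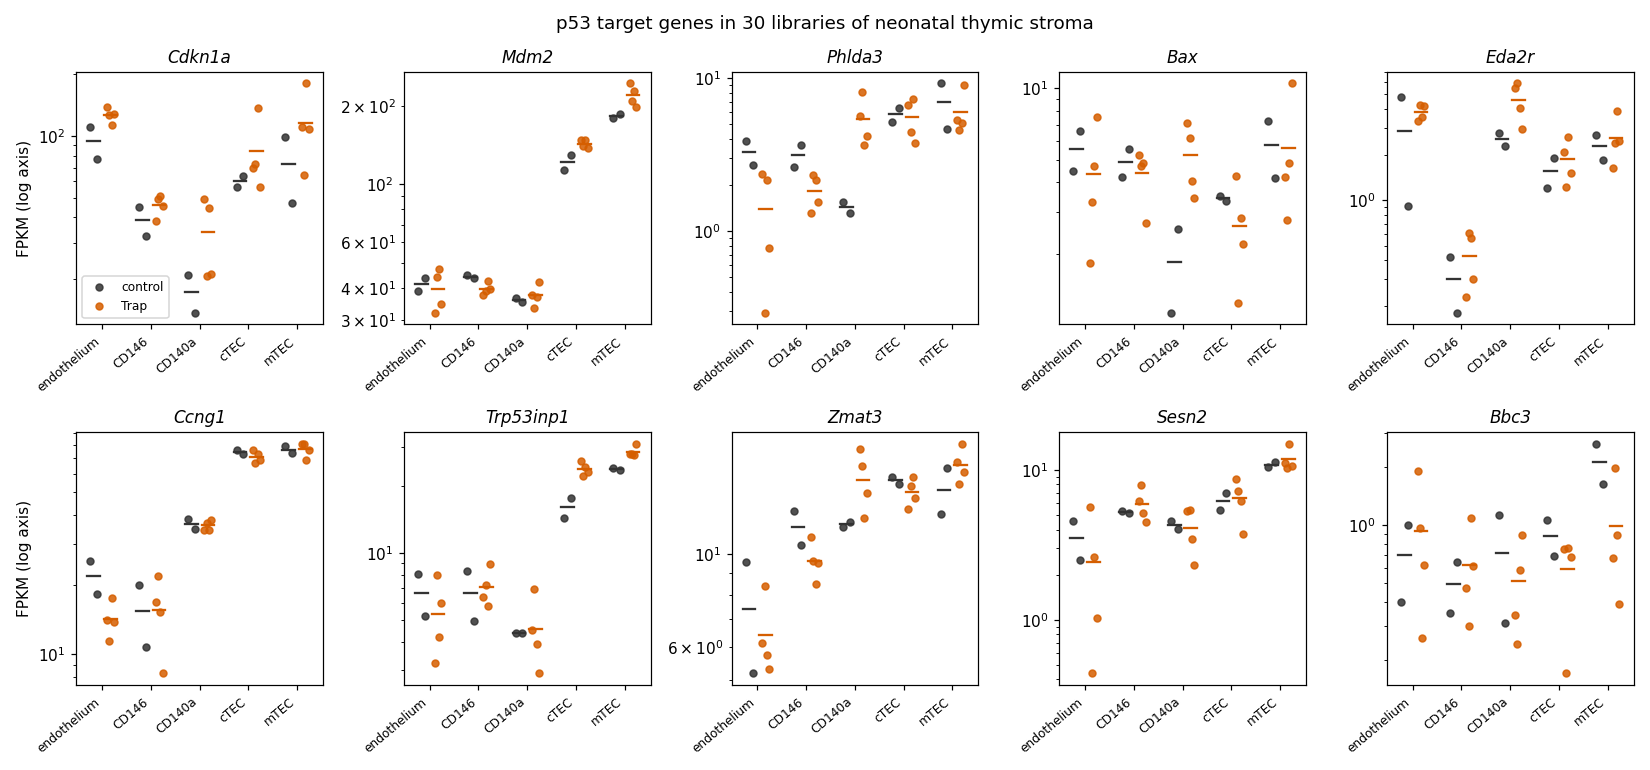
FPKM (log axis) of each member in 30 libraries by population, with 1 point per library, control and Trap apart, and a line at the group mean. Mdm2 and Trp53inp1 stand higher in cTEC and mTEC than in the other populations, and Cdkn1a is lowest in the CD140a+ mesenchyme.

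Cdkn1a and Zmat3 are linked to growth control. Cdkn1a encodes p21, the inhibitor of cyclin-dependent kinases through which p53 stops the cell cycle, and Zmat3 encodes an RNA-binding zinc finger protein that regulates splicing. Cdkn1a did not follow the epithelial pattern. It was highest in the endothelium at 116 ± 21.4 FPKM (SD, n = 6), with libraries from 77.5 to 139, followed by mTEC at 102 ± 46.4 and cTEC at 76.3 ± 30.6. The CD146+ mesenchyme had 43.6 ± 6.99 FPKM and the CD140a+ mesenchyme 28.4 ± 14.7. The mTEC libraries were the most spread, from 47.2 in a control to 181 with Trap, and overlapped those of the endothelium. Against the mean of the other populations Cdkn1a was higher by 1.12 ± 0.21 in the endothelium (limma adjusted p = 4.83e-05) and by 0.72 ± 0.21 in mTEC (adjusted p = 0.00422). It was lower by 0.57 ± 0.21 in CD146+ mesenchyme (adjusted p = 0.0277) and by 1.60 ± 0.21 in CD140a+ mesenchyme (adjusted p = 2.85e-07). Endothelium, mTEC and cTEC did not differ between neighbours, while cTEC lay above CD146+ mesenchyme (0.71 ± 0.26, adjusted p = 0.0291) and that above CD140a+ mesenchyme (0.83 ± 0.26, adjusted p = 0.0158). The mTEC call was lost without the first mTEC control library (adjusted p = 0.134) and with control libraries alone (0.122). The CD146+ call was lost without the second control (0.187) or first Trap library (0.056) of that population, with control libraries alone (0.358), under TPM (0.0728) and under quantile normalization (0.0701).

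Zmat3 varied by 2.34-fold between populations. It measured 15.7 ± 2.00 FPKM in mTEC, 14.4 ± 0.99 in cTEC, 14.02 ± 2.60 in CD140a+ mesenchyme, 10.3 ± 1.45 in CD146+ mesenchyme and 6.73 ± 1.83 in endothelium. The endothelium was lower than the mean of the others by 0.90 ± 0.11 (limma adjusted p = 9.25e-08), and the step from CD146+ mesenchyme down to it was the one neighbouring step that passed (0.59 ± 0.14, adjusted p = 0.00111). The differences of 0.45 ± 0.11 in mTEC and 0.38 ± 0.11 in cTEC also passed, the first of them not under TPM (adjusted p = 0.0641), and neither with control libraries alone (0.256 and 0.174). In CD140a+ mesenchyme Zmat3 did not pass as deposited (0.22 ± 0.11, adjusted p = 0.0864) but was called higher under TPM (0.32, adjusted p = 0.0275) and quantile normalization (0.34, adjusted p = 0.00676).

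A group of 5 members is linked to cell death. Bax encodes a protein that opens the outer membrane of mitochondria, and Bbc3 encodes PUMA, which releases such proteins from their inhibitors. Phlda3 encodes a repressor of the survival kinase Akt. Trp53inp1 encodes a protein of autophagy and stress that also promotes p53 activity, and Eda2r encodes a receptor for ectodysplasin A2.

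Trp53inp1 shared the epithelial pattern of Mdm2, at 27.0 ± 2.77 FPKM in mTEC and 21.3 ± 4.34 in cTEC. It measured 6.91 ± 1.52 in CD146+ mesenchyme, 5.76 ± 1.96 in endothelium and 4.49 ± 1.32 in CD140a+ mesenchyme. All 12 epithelial libraries, from 14.4 to 31.0 FPKM, exceeded all 18 others, which lay between 2.89 and 8.94. The difference was 1.64 ± 0.14 in mTEC (limma adjusted p = 2.05e-10) and 1.14 ± 0.14 in cTEC (adjusted p = 2.45e-07), and mTEC and cTEC did not differ beyond their spread (0.40 ± 0.18, adjusted p = 0.0844). The lower calls in endothelium (-0.87 ± 0.14) and CD146+ mesenchyme (-0.63 ± 0.14) were lost with control libraries alone (limma adjusted p = 0.0624 and 0.0748).

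Phlda3 was low throughout, at 6.33 ± 2.20 FPKM in mTEC, 5.65 ± 1.39 in cTEC, 4.09 ± 2.57 in CD140a+ mesenchyme, 2.27 ± 0.85 in CD146+ mesenchyme and 2.02 ± 1.31 in endothelium. It was higher by 0.84 ± 0.20 in mTEC (limma adjusted p = 7.92e-04) and by 0.67 ± 0.20 in cTEC (adjusted p = 0.007), and lower by 0.71 ± 0.20 in endothelium (adjusted p = 0.00416) and by 0.52 ± 0.20 in CD146+ mesenchyme (adjusted p = 0.0355). The cTEC call was lost without the second cTEC control library (adjusted p = 0.061). The CD146+ call was lost without any 1 of 7 libraries, which were both controls and Trap libraries 1 and 4 of CD146+ mesenchyme, the second cTEC control, the first endothelial control and the first mTEC control. It was also lost with a pseudocount of 0.1 (limma adjusted p = 0.0988) and under TPM (limma adjusted p = 0.162). The order over all libraries differed from that in the controls alone. In control libraries the mean was 3.29 FPKM in endothelium, 3.15 in CD146+ and 1.44 in CD140a+ mesenchyme. A fit on controls alone gave -0.17 in endothelium (limma adjusted p = 0.670), -0.22 in CD146+ mesenchyme (0.603) and 0.67 in cTEC (0.113), none of them called, while CD140a+ mesenchyme was called lower (-1.17, 0.0129).

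Eda2r had a higher mean in 2 non-epithelial populations than in the epithelium and the widest fold range of the members, 10.2. The CD140a+ mesenchyme had 3.91 ± 1.504 FPKM and the endothelium 3.51 ± 1.38, above mTEC with 2.48 ± 0.80 and cTEC with 1.76 ± 0.55. Between pairs of populations neither was called above mTEC, and the endothelium lay above it by 0.25 ± 0.23 (limma adjusted p = 0.363). In the CD146+ mesenchyme Eda2r was 0.38 ± 0.18, and no library of that population exceeded 0.61. The difference from the mean of the others was 0.73 ± 0.18 in CD140a+ mesenchyme (limma adjusted p = 0.00154), 0.57 ± 0.18 in endothelium (adjusted p = 0.0106) and -1.39 ± 0.18 in CD146+ mesenchyme (adjusted p = 5.4e-07). The endothelial call was lost without the first endothelial control library (0.17, adjusted p = 0.472), in which Eda2r measured 4.81 FPKM against 0.92 in the other control. With control libraries alone neither higher call passed (0.53, limma adjusted p = 0.338, in CD140a+ mesenchyme and 0.44, 0.416, in endothelium).

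Bax and Bbc3, the pair of BCL-2 family members, were called least often between cell types. Bax ranged from 2.90 ± 1.06 FPKM in cTEC to 5.63 ± 2.81 in mTEC and passed the test in none of the 5 comparisons (adjusted p from 0.124 to 0.538). With control libraries alone it was called lower in CD140a+ mesenchyme (-1.07, limma adjusted p = 0.0231). Bbc3 ranged from 0.58 ± 0.29 FPKM in CD146+ mesenchyme to 1.37 ± 0.86 in mTEC. It was higher in mTEC by 0.56 ± 0.18 (limma adjusted p = 0.00906), a call lost under TPM (adjusted p = 0.0715) and without the first mTEC control library (0.105), while quantile normalization turned the difference to -0.02. At such levels close to the pseudocount of 1 FPKM, differences on this scale understate fold changes.

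Sesn2 encodes sestrin 2, which restrains the mTORC1 kinase when amino acids are short. It was highest in mTEC at 11.5 ± 1.77 FPKM, with libraries from 10.3 to 14.99. No library of any other population exceeded 8.71 FPKM. The mean was 6.40 ± 1.71 in cTEC, 5.72 ± 1.23 in CD146+ mesenchyme, 4.17 ± 1.16 in CD140a+ mesenchyme and 2.81 ± 2.01 in endothelium. It was higher by 1.18 ± 0.22 in mTEC (limma adjusted p = 6.15e-05) and lower by 1.04 ± 0.22 in endothelium (adjusted p = 3.15e-04), and mTEC lay above cTEC by 0.76 ± 0.28 (adjusted p = 0.0311).

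Tested between all 10 pairs of populations, 56 of the 100 member comparisons passed, and of the 40 steps between neighbours in the order of levels 11 did. CD146+ mesenchyme and mTEC differed in 9 members, all lower in CD146+ mesenchyme, where 55.7% of all genes differed in either direction. Against cTEC, CD146+ mesenchyme was lower in 7 members and higher in 0 (41.6%), and against CD140a+ mesenchyme lower in 2 and higher in 2 (31.2%). The CD140a+ mesenchyme was lower in 7 and higher in 0 against mTEC (57.2%), and lower in 5 and higher in 1 against cTEC (43.9%). The endothelium was lower in 6 and higher in 0 against mTEC (57.8%), lower in 6 and higher in 2 against cTEC (44.7%), lower in 2 and higher in 2 against CD146+ mesenchyme (35.7%), and lower in 2 and higher in 1 against CD140a+ mesenchyme (41%). The 2 epithelial populations differed in 2 members, Mdm2 and Sesn2, both lower in cTEC (41.2%).

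Transcripts of p53 itself did not show the epithelial pattern. Trp53 measured 58.3 ± 11.1 FPKM in mTEC, 47.3 ± 11.3 in endothelium, 46.7 ± 8.69 in CD146+ mesenchyme, 40.1 ± 3.74 in cTEC and 38.0 ± 7.57 in CD140a+ mesenchyme. It was higher by 0.42 ± 0.13 in mTEC (limma adjusted p = 0.00684) and lower by 0.33 ± 0.13 in CD140a+ mesenchyme (adjusted p = 0.0339). Trp63 was largely epithelial, at 68.6 ± 6.34 FPKM in cTEC and 37.7 ± 3.68 in mTEC, with means from 0.28 to 1.298 in the other populations. The differences were 4.26 ± 0.15 in cTEC and 3.24 ± 0.15 in mTEC, so cTEC had more Trp63 but less Mdm2 than mTEC. Trp73, the third gene of the family, did not exceed 0.79 FPKM in any library and was not tested. Mdm4, whose product resembles Mdm2 and holds p53 inactive, ranged from 23.8 ± 3.03 FPKM in endothelium to 34.4 ± 3.74 in mTEC.

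**Figure D3:**
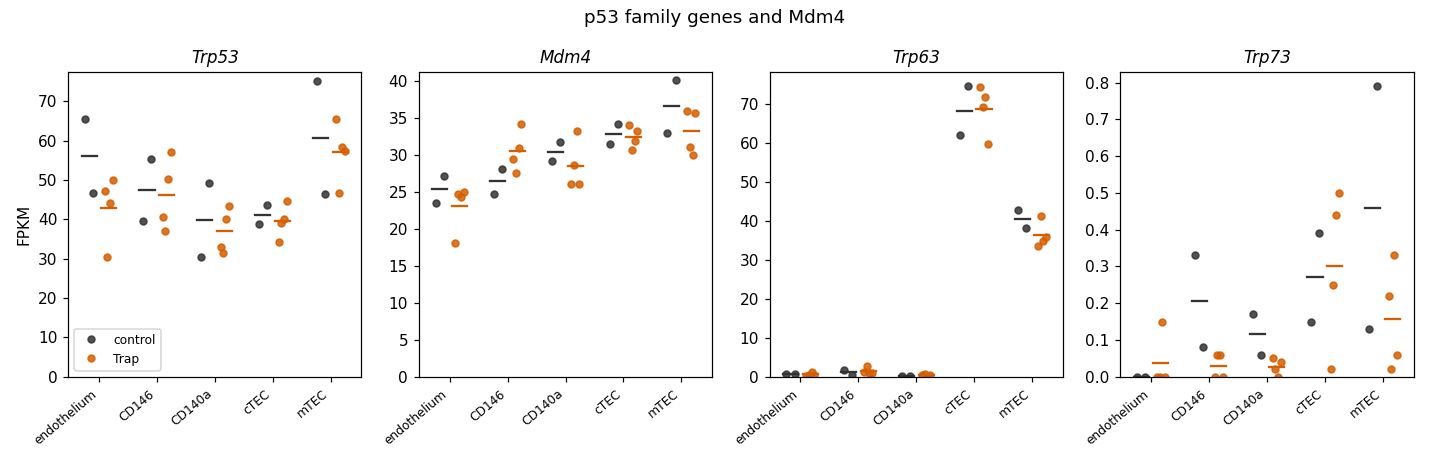
FPKM (linear axis) of Trp53, Trp63, Trp73 and Mdm4 in 30 libraries by population, 1 point per library, with control and Trap apart and lines at the group means. Trp63 is high in cTEC and mTEC, while Trp53 is present at 38.0 to 58.3 FPKM on average in every population.

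The other lists of the pathway are read against the shares of all genes, which were 38.4% higher and 17.5% lower in mTEC, 21.2% and 24.5% in cTEC, 17.7% and 34.5% in endothelium, 18.2% and 25% in CD146+ mesenchyme and 17.1% and 33% in CD140a+ mesenchyme. The lead of mTEC is shared by all genes and turned to more lower than higher under quantile normalization. Of 19 regulators of p53 tested, 10 were higher and 0 lower there, including Hipk2, a kinase that phosphorylates p53 (1.03 ± 0.10), and Rfwd2, the ligase COP1 (1.60 ± 0.08, 64.4 ± 7.32 FPKM against means of 16.9 to 22.5 elsewhere). In cTEC 8 regulators were higher and 1 lower, in CD146+ mesenchyme 3 and 3, and in CD140a+ mesenchyme and endothelium 0 and 10 each.

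Of 15 other targets of growth arrest and repair, 9 were higher and 1 lower in mTEC and 6 and 2 in cTEC. The endothelium had 3 and 7, the CD140a+ mesenchyme 3 and 5, and the CD146+ mesenchyme 0 and 6. Sfn, which encodes the epithelial protein 14-3-3 sigma, was higher by 3.32 ± 0.27 in mTEC and 2.81 ± 0.27 in cTEC. Plk2, a polo-like kinase, was higher by 1.61 ± 0.10 in endothelium. Epha2, an ephrin receptor, was lower by 3.04 ± 0.14 in CD140a+ mesenchyme.

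Of 11 other targets linked to cell death, 7 were higher and 1 lower in mTEC, 3 and 2 in cTEC, 5 and 4 in endothelium, 1 and 5 in CD146+ mesenchyme, and 0 and 6 in CD140a+ mesenchyme. Pmaip1, which encodes the BCL-2 family member NOXA, measured 65.7 ± 14.98 FPKM in mTEC and between 0.77 and 2.03 on average elsewhere, a difference of 4.93 ± 0.27 (limma adjusted p = 9.24e-15). Unlike Pmaip1, Perp, a desmosomal protein of epithelia that p63 also controls, was high in both epithelial populations (5.36 ± 0.46 in mTEC and 4.91 ± 0.46 in cTEC). Tnfrsf10b, a TRAIL receptor, was higher in endothelium (1.83 ± 0.14) and mTEC (1.48 ± 0.14), and Trp53i11 was higher in endothelium by 2.82 ± 0.19.

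Of 12 further targets in metabolism and other roles, 6 were higher and 0 lower in mTEC, 4 and 5 in cTEC, 4 and 4 in endothelium, 1 and 3 in CD146+ mesenchyme, and 1 and 6 in CD140a+ mesenchyme. Pltp, a phospholipid transfer protein, was higher by 4.72 ± 0.30 in cTEC, and Ddit4, an inhibitor of mTORC1, by 1.59 ± 0.30 in endothelium.

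Cell cycle genes that are repressed when p21 is active gave higher calls in mTEC and cTEC and lower calls in endothelium and CD140a+ mesenchyme. Of 13, 10 were higher in mTEC (38.4% of all genes) and 5 in cTEC (21.2%) with 0 lower, among them Top2a (1.18 ± 0.24 and 0.89 ± 0.24). The endothelium, with the highest Cdkn1a, had 9 of 13 lower (34.5% of all genes) and 0 higher, led by Ccna2 (-1.80 ± 0.24) and Ccnb1 (-1.56 ± 0.22). Cdkn1a in mTEC, where 10 of 13 were higher, was not called different from that in endothelium (0.32 ± 0.26, limma adjusted p = 0.297). A link between Cdkn1a and these genes was not tested. The CD140a+ mesenchyme, with the lowest Cdkn1a, had 6 of 13 lower (33%) and 0 higher, and the CD146+ mesenchyme had 0 in either direction by limma, also at an unadjusted p under 0.05. Genes of the integrated stress response, which also induces Sesn2, were mixed beside the same shares of all genes, with 3 of 12 higher and 3 lower in mTEC, 2 and 4 in cTEC, 3 and 4 in endothelium, 2 and 1 in CD146+ mesenchyme, and 3 and 6 in CD140a+ mesenchyme.

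Dissociation and immediate early genes, which tissue digestion can induce, were called higher most often in the CD140a+ mesenchyme. There 9 of 12 were higher (17.1% of all genes) and 2 lower (33%). The largest differences were those of Hspa1a, which was lower (-1.90 ± 0.34), and Fosb, which was higher (1.78 ± 0.10). In mTEC 0 were higher and 8 lower (38.4% and 17.5%), in cTEC 2 and 3, in endothelium 2 and 3, and in CD146+ mesenchyme 2 and 4. Their part in the levels of the members was not tested.

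To ask whether withdrawal of VEGF moved p53 targets, Trap was compared with control within each population. By limma at the adjusted threshold, 0 of 10 members passed in each of the 5 populations. Over all genes, 1.74% passed in the endothelium, 0.347% in mTEC, 0.0183% in CD146+ mesenchyme, 0.00609% in cTEC and 0% in CD140a+ mesenchyme. At an unadjusted p under 0.05, 7 of the 50 member comparisons passed, which were Phlda3, Bax and Cdkn1a in CD140a+ mesenchyme (3.71% of all genes), Phlda3 and Ccng1 in endothelium (14.9%), Trp53inp1 in cTEC (2.28%), Bbc3 in mTEC (7.49%) and 0 in CD146+ mesenchyme (5%).

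Trap libraries stood clear of both controls for 4 members in the CD140a+ mesenchyme, 3 in the endothelium and 2 in each other population. Phlda3 measured 1.55 and 1.32 FPKM in control and 5.68, 8.11, 3.63 and 4.22 with Trap. All 4 Trap libraries were thus above both controls, and the difference was 1.35 ± 0.36 with a limma adjusted p of 0.891 that ranged from 0.287 to 1 over the alternatives tried. Bax measured 1.12 and 2.55 in control and 7.16, 6.18, 4.05 and 3.45 with Trap, again without overlap (1.13 ± 0.41, limma adjusted p = 1). Eda2r measured 2.76 and 2.29 in control and 5.49, 5.90, 4.05 and 2.97 with Trap (0.64 ± 0.33), where Trap library 4 lay close to the controls.

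Zmat3 measured 11.6 and 12.0 FPKM in the CD140a+ controls and 17.9, 16.4, 12.2 and 14.01 with Trap, the third of them only just above the controls (0.32 ± 0.19). Cdkn1a measured 21.04 and 13.7 in control and 49.4, 20.76, 44.4 and 21.08 with Trap. Here 2 Trap libraries were far above the controls and the other 2 level with the higher one, and the difference was 0.85 ± 0.37 (limma adjusted p = 1). In all, 4 of 10 members had every Trap library above both controls, as had 5.14% of the genes tested, and 0 had every one below, as had 6.79%. The feedback genes were level, with Mdm2 at 36.4 and 35.3 in control and 37.7, 33.3, 36.8 and 42.2 with Trap, and Ccng1 at 38.2 and 34.8 in control and 34.5 to 38.1 with Trap. The median difference of the 10 members was 0.19, beside 0.00 over all genes, with 6 of 10 above 0. In these libraries the 12 thymocyte markers summed to between 41.0 and 52.5 FPKM in control and between 47.2 and 73.9 with Trap. Only 1 of the 12 reached 1 FPKM in control and 5 did with Trap, so the sum does not stand for the whole list. Against the mean of the other 4 populations, 1 of these markers was higher and 6 were lower here. The part of these transcripts in the differences was not tested.

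**Figure D4:**
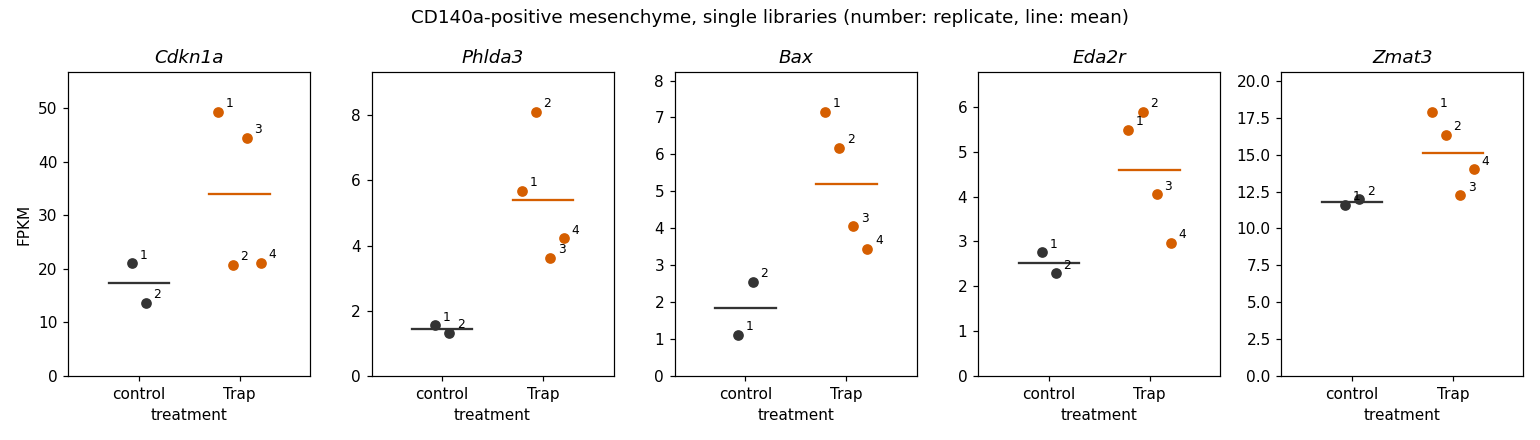
FPKM of Cdkn1a, Phlda3, Bax, Eda2r and Zmat3 in single CD140a+ mesenchyme libraries, 2 control and 4 Trap. Every Trap library lies above both controls for Phlda3, Bax, Eda2r and Zmat3, while for Cdkn1a 1 Trap library, at 20.76 FPKM, lies below the higher control, at 21.04.

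In the endothelium, whose growth and survival depend on VEGF receptors, the members' differences had both signs and none passed. Cdkn1a measured 111 and 77.5 FPKM in control and 139, 127, 113 and 128 with Trap, all above the controls, though the third by little (0.44 ± 0.37). Phlda3 measured 3.89 and 2.69 in control and 2.35, 0.29, 2.15 and 0.77 with Trap, all below the controls (-0.94 ± 0.36, limma adjusted p = 0.189). Ccng1 measured 25.3 and 18.2 in control and 14.1, 11.4, 17.6 and 13.8 with Trap, also below (-0.58 ± 0.23, limma adjusted p = 0.224). Every Trap library was above both controls for 5.36% of all genes and below for 9.48%.

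Sesn2 measured 4.58 and 2.50 FPKM in the endothelial controls and 5.67, 0.44, 2.63 and 1.03 with Trap, so that the groups overlapped. The lowest values of Phlda3 and Sesn2, 0.29 and 0.44 FPKM, fell in the second Trap library, the one with the most epithelial transcripts. Fibroblast markers were also higher with Trap in this population. They summed to 58.6 and 84.9 FPKM in control and to between 102 and 137 with Trap, and 2 of 10 were called higher. The part of either in the differences was not tested. The median member difference was -0.23, beside -0.02 over all genes.

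In the CD146+ mesenchyme, Mdm2 and Phlda3 lay lower in every Trap library than in both controls, as did 6.84% of all genes. Mdm2 measured 44.7 and 43.6 FPKM in control and 37.7, 39.0, 42.5 and 39.6 with Trap, without overlap but with a difference of -0.15 ± 0.13. Phlda3 measured 2.62 and 3.68 in control and 1.31, 2.33, 2.15 and 1.54 with Trap.

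In both epithelial populations the members that lay above the controls in every Trap library were Mdm2 and Trp53inp1. This held for 5.66% of all genes in cTEC and 5.06% in mTEC. In cTEC, Mdm2 measured 113 and 130 FPKM in control and 148, 140, 148 and 138 with Trap (0.24 ± 0.13). Trp53inp1 measured 14.4 and 17.7 in control and 25.8, 22.3, 24.4 and 23.0 with Trap (0.55 ± 0.26, limma adjusted p = 1). The sum of the 12 thymocyte markers was also above both controls in every cTEC Trap library, though in the first by little. It was 69.1 and 104.7 FPKM in control and 105.3, 116, 158 and 168 with Trap. Of the 12 markers, 10 had a Trap difference above 0, and their part in the differences was not tested.

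In mTEC, Mdm2 differed by 0.26 ± 0.13, and Trp53inp1 measured 24.1 and 23.5 FPKM in control and 27.9, 27.8, 27.5 and 31.0 with Trap. Neither difference passed. Bbc3, the trigger of mitochondrial cell death, measured 2.64 and 1.62 in the mTEC controls and 0.67, 1.98, 0.89 and 0.39 with Trap (-0.70 ± 0.32, limma adjusted p = 0.618). The second Trap library overlapped the controls.

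Cdkn1a and Eda2r had Trap differences above 0 in 5 of 5 populations. The sign of Eda2r turned under at least 1 alternative in endothelium (-0.27 to 1.33), CD146+ mesenchyme, cTEC and mTEC. The differences of Cdkn1a lay between 0.25 and 0.85, and 16 of the 20 Trap libraries exceeded both controls of their own population for Cdkn1a, while 1 lay below both. This count was chosen after the values were seen, and 0.451% of the genes tested had as many. In mTEC, the mTEC markers summed to 1738 and 1059 FPKM in control and 2489, 1350, 2839 and 1885 with Trap. Ranked by this sum, the mTEC libraries fell in the same order as by Cdkn1a, and its part in the differences was not tested. The mean Trap difference over the 5 populations was 0.52 ± 0.16 for Cdkn1a, with a limma adjusted p of 0.164 that ranged from 0.105 to 0.323 over the alternatives, and it did not pass. Eda2r had a mean difference of 0.31 ± 0.15 (limma adjusted p = 0.394). By limma, 0 of 10 members passed, 2 at an unadjusted p under 0.05, beside 0.426% of all genes after adjustment and 11.9% before.

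**Figure D5:**
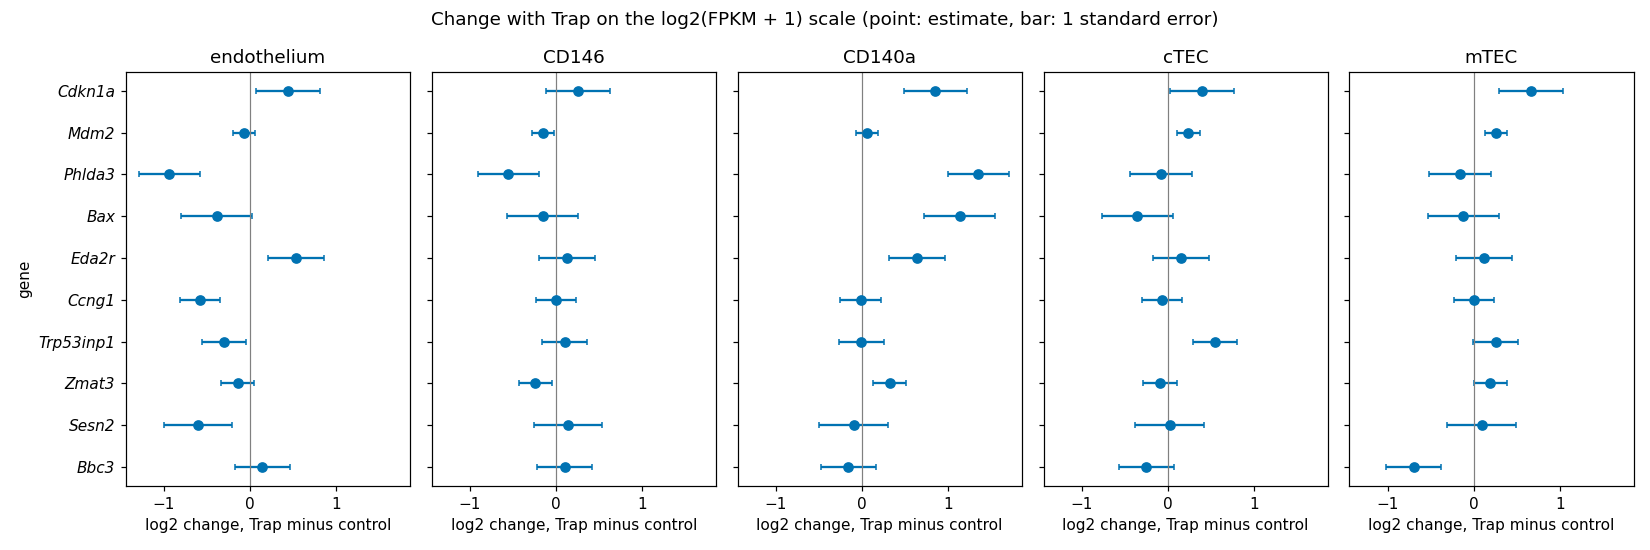
Trap minus control difference in log2(FPKM + 1) of each member by population, with points at the estimate and bars of 1 standard error. Phlda3 lies at 1.35 in the CD140a+ mesenchyme and at -0.94 in the endothelium, and Cdkn1a lies above 0 in all 5 populations.

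Whether the Trap difference itself varied between populations was tested by setting each against the average of the remaining 4, and 0 of 50 member tests passed by limma, 4 at an unadjusted p under 0.05. Over all genes 0.28% passed in the endothelium, 0.201% in mTEC, 0.00609% each in CD146+ mesenchyme and cTEC and 0% in CD140a+ mesenchyme. At an unadjusted p under 0.05, 11% of all genes passed in endothelium, 5.6% in mTEC and 3.91% in CD146+ mesenchyme. That share was 1.91% in cTEC and 3.53% in CD140a+ mesenchyme. Of the 4 member tests, 2 fell in the endothelium and 2 in CD140a+ mesenchyme. Phlda3 gave the strongest contrast, with a difference in CD140a+ mesenchyme that exceeded that of the others by 1.78 ± 0.40 (limma adjusted p = 0.481). For Bax in the same population the excess was 1.39 ± 0.46 (limma adjusted p = 1). In tests between pairs of populations, added after the values were seen, 0 of 100 passed by limma, 11 at an unadjusted p under 0.05. Of all genes, 0.0365% passed between endothelium and CD146+ mesenchyme, 0.0244% between endothelium and CD140a+ mesenchyme, 0.0365% between endothelium and cTEC, and 0.146% between endothelium and mTEC. For CD146+ mesenchyme the share was 0% against CD140a+ mesenchyme, 0.00609% against cTEC and 0.0731% against mTEC. It was 0.0122% between CD140a+ mesenchyme and cTEC, 0.0365% between CD140a+ mesenchyme and mTEC, and 0.0791% between the epithelial populations. For these pairs the share of all genes at an unadjusted p under 0.05 was not computed. The Trap difference of Phlda3 in endothelium lay below that in CD140a+ mesenchyme by 2.29 ± 0.50 (limma adjusted p = 0.0852).

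In the wider pathway, 5 genes were called with Trap in the endothelium. There the cell cycle list had 4 of 13 genes lower, beside 1.42% of all genes, and none of the 13 was above 0. Their median difference was -0.93, beside -0.02 over all genes. Cdk1, the kinase that drives mitosis, fell from 6.16 ± 1.41 FPKM (SD, n = 2) to 0.93 ± 0.81 (n = 4), a difference of -1.97 ± 0.42 (limma adjusted p = 0.0147). Mki67, a marker of cycling cells, fell from 42.5 ± 6.74 to 11.7 ± 3.82 FPKM (-1.82 ± 0.42, limma adjusted p = 0.0225). Ccna2, which encodes cyclin A2, fell by 1.84 ± 0.44 (limma adjusted p = 0.0273), and Top2a, a topoisomerase of dividing cells, fell by 1.71 ± 0.44 (limma adjusted p = 0.0395).

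Among 19 regulators, Chek1, a checkpoint kinase that is itself highest in cycling cells, fell in the endothelium from 11.9 ± 0.96 to 4.75 ± 3.05 FPKM (-1.32 ± 0.32, limma adjusted p = 0.0333). Whether these differences were particular to the endothelium was tested against the average of the remaining 4 populations. By limma, 0 of 13 cell cycle genes and 0 of 19 regulators passed. At an unadjusted p under 0.05, 6 and 3 of them passed, beside 11% of all genes. In the mean over 5 populations 0 of 13 cell cycle genes passed by limma, and none was above 0. At an unadjusted p under 0.05, 8 of the 13 passed, beside 11.9% of all genes. These 5 calls rest on a spread shared over all populations and on both controls. The fit on the 6 endothelial libraries alone called 0 genes of the whole table, and with 1 weight per population 0 of the 5 passed (adjusted p from 0.241 to 0.437). Without control library 1, 0 of the 5 passed (0.0713 to 0.303), and without control library 2, Ccna2 alone did. Without Trap library 2, Cdk1, Mki67 and Ccna2 passed, and Cdk1 alone did without Trap library 4 or under quantile normalization. Chek1 also missed the threshold under TPM and upper quartile scaling. By limma, 0 of 15 arrest and repair targets passed in the endothelium (4 at an unadjusted p under 0.05, beside 14.9% of all genes). Likewise 0 of 11 death targets (2) and 0 of 12 metabolic targets (2) passed. Of stress response genes 0 of 12 passed (1), and of dissociation and immediate early genes 0 of 12 (1). Xpc, a repair factor, came closest at -1.31 ± 0.35 (limma adjusted p = 0.0506).

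In the other 4 populations, 0 of the 94 genes of these lists passed by limma with Trap. At an unadjusted p under 0.05 there were 7 in CD146+ mesenchyme (5% of all genes) and 4 in CD140a+ mesenchyme (3.71%). There were 2 in cTEC (2.28%) and 1 in mTEC (7.49%). In CD140a+ mesenchyme, the arrest and repair targets of smallest p were Sfn (1.44 ± 0.49, from 0.22 to 2.97 FPKM on average) and Ddb2, a damage recognition factor (0.91 ± 0.41, from 2.03 to 4.83 FPKM), both with an adjusted p of 1 by limma.

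The members also differed in how closely their patterns matched, as described by Pearson's r over the 10 group means of log2(FPKM + 1), which share libraries and scaling. Mdm2 and Trp53inp1 were the closest pair (r = 0.985), and Mdm2 also ran with Ccng1 (0.851) and Sesn2 (0.825). The least alike were Cdkn1a and Zmat3 (-0.276) and Eda2r and Sesn2 (-0.274). The genes most like Cdkn1a were Fam84b (0.964) and Cyfip1 (0.957). Those most like Eda2r were Lars2 (0.937), Trim16 (0.935) and Ly6a (0.911), and those most like the mean of the 10 standardised members were Pard6b (0.979), Ube2ql1 (0.975) and Hpgds (0.974).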

How the data were processed

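Thymic RNA from 30 sorted libraries was made into cDNA (Ovation RNA-Seq System V2) and read from both ends on a HiSeq3000, per the labels' protocols. Per the submitters' processing notes, bcl2fastq 2.17, STAR and DESeq2 served with GRCm38 and mm10. Which step each tool did, and with which gene annotation, is not stated here. The authors deposited FPKM values to 2 decimals for protein-coding genes, with no counts, so the depth behind each value is unknown and no counting interval is given. A total of 27 symbols turned into dates were restored by identifier.

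Genes at 1 FPKM or more in at least 2 libraries (16425) were fitted as log2(FPKM + 1) with limma 3.58.1 (R 4.3.3), using means of the 10 groups and a trended prior. All 10 members passed this filter. P-values were adjusted by Benjamini-Hochberg over all genes tested in each contrast. All members were named, with 2 to 4 genes of each other list, taken by smallest p (Trap) or largest difference (populations). The members and lists were chosen with earlier results of these data known. Other pseudocounts, filters, scalings, weights and left-out libraries were tried. The fit was tested on simulated data. One gene that the rule for likeness to Cdkn1a names is not reported here.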

Additional observations from a re-analysis of the deposited data

Results flagged for a closer look

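In 3 of the 50 groups of 4 Trap libraries, 1 library of a member stood apart from the others, and chance alone flags about 1 in 20 groups. Bax measured 2.69 FPKM in the fourth Trap library of the CD146+ mesenchyme, against 4.70 to 5.22 in the other 3. Trp53inp1 measured 31.0 FPKM in the fourth Trap library of mTEC, against 27.5 to 27.9. Bbc3 measured 0.17 FPKM in the second Trap library of cTEC, against 0.68 to 0.76.

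For 4 pairs of populations, every Trap library lay above both controls in 1 population and below both in the other. Mdm2 had a Trap difference of 0.24 in cTEC and -0.15 in CD146+ mesenchyme, which differ by 0.39 on the log2 scale (limma adjusted p = 1). Against mTEC, where it was 0.26, the gap was 0.41 (limma adjusted p = 0.946). Phlda3 had a Trap difference of 1.35 in CD140a+ mesenchyme and -0.94 in endothelium, a gap of 2.29 (limma adjusted p = 0.0852). Against CD146+ mesenchyme, where it was -0.56, the gap was 1.90 (limma adjusted p = 1). None of the 4 gaps passed the test.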

How the results depend on the processing

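Of the 31 member differences called between 1 population and the mean of the other 4, 19 kept their call under each alternative tried. With control libraries alone, the members called fell from 8 to 5 in endothelium, from 6 to 3 in CD146+ mesenchyme and from 5 to 3 in cTEC, and pair differences from 56 to 34. This fit has 2 libraries per population, and its share of all genes called fell as well (52.1% to 31.8%, 43.2% to 22.2% and 45.8% to 24.2%). Quantile normalization turned Bbc3 in mTEC from 0.56 to -0.021. Leaving out 1 library at a time gave 7 to 8 members called in endothelium, 4 to 6 in CD146+ mesenchyme, 4 to 5 in CD140a+ mesenchyme, 4 to 5 in cTEC, 6 to 8 in mTEC and 51 to 58 pair differences. Without the second endothelial Trap library the endothelial count was 8. With Trap, 0 members were called in any population under any alternative, and the sign of 21 of the 50 uncalled Trap differences turned under at least 1 of them. Within populations, deviations from the group mean in 10 control and Trap pairs of the same number correlated between -0.28 and 0.08. Across populations, 50 pairs of the same treatment and number correlated between -0.05 and 0.102. With 2 controls per population their deviations mirror each other, so the check within populations cannot tell whether the numbers mark shared animals or batches. Most pairs across populations were of Trap libraries, where this mirroring does not arise. The median correlation over those 50 pairs was 0.024. The labels do not say what the numbers mark. The replicate block left the members called at 8 in endothelium, 6 in CD146+ mesenchyme, 4 in CD140a+ mesenchyme, 5 in cTEC, 8 in mTEC and 0 with Trap, and 3 of the 5 listed genes called in the endothelium with Trap (Mki67, Chek1 and Cdk1) passed under it. With 2 controls per population and no counts, small differences in low members such as Bbc3 may have been missed. The smallest difference that the fit could detect in such genes was not computed.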
